A study of Arabidopsis thaliana with 6 samples.

Results

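The comparison is between rosettes of Arabidopsis thaliana sprayed with the gibberellin GA3 and untreated rosettes of the same age. It rests on 4 of the 6 arrays of the study, chosen by their sample titles as 2 biological replicates labelled GA and 2 labelled no treatment (control). All plants, controls included, were of the Col-0 background and carried 35S:HF-RPL18B, a FLAG-tagged ribosomal protein RPL18B driven by the viral 35S promoter. The labels speak of transgenic lines and do not say which line each pot held. Plants grew in soil at 22 degrees by day and 16 at night, with 16 h of light and 8 h of dark, and whole rosettes were harvested. The titles and the treatment text give day 27 for the harvest, while another label of the same samples gives day 25. Each GA plant received 1 mL of GA3 at 50 µM as a spray every 2 days, and the day on which spraying began is not stated. Only the GA plants are described as sprayed, so in this design the hormone and the act of wetting the leaves cannot be told apart. The remaining 2 arrays came from plants watered at day 14 with 10 mL of paclobutrazol (PBZ), an inhibitor of gibberellin synthesis, at 50 mg per litre or 0.5 mg per pot.

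Gibberellins are diterpenoid hormones that promote stem and leaf elongation. A gibberellin binds a soluble GID1 receptor in the nucleus, the complex binds a DELLA protein, and an F-box protein (SLY1) then marks the DELLA for destruction. DELLA proteins hold back growth and also switch on genes of the pathway itself, among them receptor genes and XERICO, so that in Arabidopsis added gibberellin is known to lower the messages of its own receptors. Genes of cell wall loosening, such as expansins and xyloglucan endotransglucosylases (XTH), are classical gibberellin-responsive genes.

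Each array gave 1 linear intensity for each of 22746 probe sets, groups of short probes read together, of which 13513 named 1 gene. Differences are GA minus control after adding 10 and taking log2. The added 10 makes the difference of a dim gene smaller than its true change. A gene passed where its Benjamini-Hochberg adjusted p from limma was under 0.05. Precision was limited by having 2 arrays a group, with a median standard error (SE) of a difference of 0.16. Each SE and p-value rests on the spread between biological replicates pooled over all 3 groups, PBZ included. The labels give nothing more about the origin of the replicates. The PBZ pair was the least alike: 1.44% of probe sets differed at least 2-fold within it, against 0.84% in control and 0.44% in GA. The median intensity was 32.4 and 33.2 in the control arrays and 32.6 and 32.7 in the GA arrays. The correlation of log2 values across probe sets was 0.986 between the control arrays, 0.988 between the GA arrays and 0.979 to 0.986 between the groups, so control replicate 2 was about as close to GA replicate 2 as to its own partner. The ratio of 3' to 5' control probe sets is a sign of RNA integrity. For actin it was 4.84 and 3.62 in control and 4.57 and 4.25 in GA, with overlapping groups. For GAPDH it was 0.854 and 0.872 in control and 1.078 and 0.926 in GA, so both GA arrays lay above both controls. For ubiquitin the groups overlapped. Whether the GAPDH gap bears on the differences below was not tested. The leaf was represented by genes of photosynthesis, with intensities of 4741.1 and 3858.2 in control and 4237.1 and 4178.4 in GA for RCA, the Rubisco activase. Of the root markers LBD16 and LBD29, the first had intensities of 20.9 and 12.8 in control and 17.8 and 7.3 in GA, and the second stayed at or under 1.3 on these 4 arrays. The listed markers of flower organs, pollen and seed had no probe set that named them alone.

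Spraying with GA3 was accompanied by a set of bright differences on one side. Genes that respond quickly to touch, wounding and elicitors (CML38, WRKY53, PUB23, CML37, ZAT10) and genes of the cell wall (EXLA1, EXO, PME41, XTH18) were brighter in both GA arrays than in both controls, by 2.23-fold for CML37 to 5.61-fold for CML38 after adding 10. Genes that were dimmer in GA differed by less, and among named ones included XERICO, the trichome regulator GIS and genes of endoplasmic reticulum bodies. The gibberellin receptor genes were also dimmer, but none had an unadjusted p under 0.05 in limma. That p was 0.0646 for GID1A, 0.0567 for GID1B and 0.166 for GID1C. No gene passed the test: 0 of 22746 probe sets, which is 0%, had an adjusted p under 0.05 in limma, and the smallest adjusted p was 0.109. At an unadjusted p under 0.05 there were 1931 probe sets, or 8.49%, of which 1078 (4.74%) were brighter and 853 (3.75%) dimmer in GA. Because RNA was taken from whole rosettes, fewer cells of a type and less RNA per cell cannot be told apart.

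The call depended on how the spread was estimated. With a spread that varies with intensity, 51 probe sets passed (0.224%), 50 of them brighter in GA (0.22%) and 1 dimmer (0.0044%). Without the dimmest 40% of probe sets, 193 of 13647 passed (1.41%), 175 brighter (1.28%) and 18 dimmer (0.132%). These settings shared 47 passing probe sets. Of the 193, 87 named 1 gene, 77 of them brighter and 10 dimmer. Both counts rested on single arrays: the count of 51 became 0 without control replicate 1, 22 without control replicate 2 and 0 without either GA or either PBZ array. The count of 193 became 31 without control replicate 1, 173 without control replicate 2, 30 without GA replicate 1, 84 without GA replicate 2 and 229 without either PBZ array. No gene is therefore called as risen or fallen below, and where one passed in these alternative fits, that is said.

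By size, 173 probe sets (0.761%) were at least 2-fold brighter in GA and 10 (0.044%) at least 2-fold dimmer. At a log2 difference of 1.5 or more there were 49 brighter and 0 dimmer, at 2 or more 18 brighter, and at 2.5 or more 7 brighter. At 0.5 the sides were closer, with 867 brighter and 554 dimmer. The split depended on the constant added before the logarithm, with 913 brighter and 821 dimmer for a constant of 1, where dim probe sets weigh more, and 85 brighter and 1 dimmer for a constant of 32. Of the 173, 79 named 1 gene and 90 were unnamed, and 29 had a control mean under an intensity of 10. The largest difference naming 1 gene was 3.23 ± 0.37 (SE) for AT3G01830, at 0.3 and 14 in control and 130.3 and 145.4 in GA, with an adjusted p of 0.109 that became 0.042 with an intensity trend and 0.00412 without dim probe sets. The largest on the dimmer side was -1.31 ± 0.15 for AT1G73400.

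**Figure D1:**
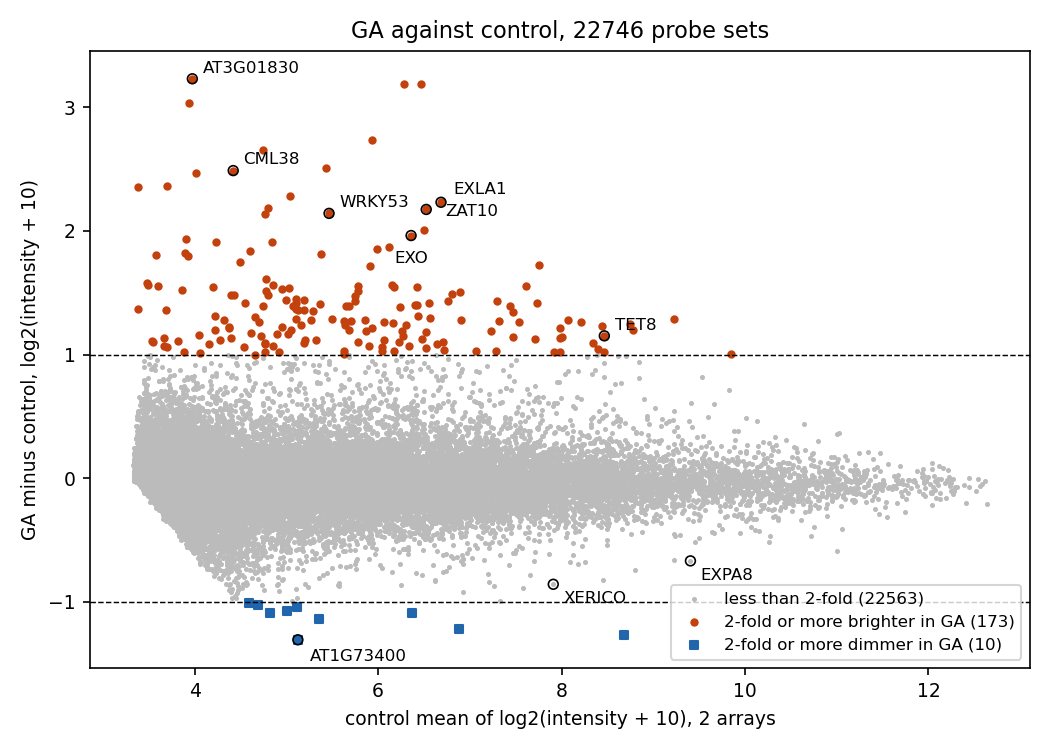
Difference between GA and control (y axis, log2(intensity + 10)) against the control mean (x axis, same scale), 1 point per probe set, with 2-fold lines dashed. The 173 probe sets above the upper line reach 3.23, and the 10 below the lower line reach -1.31.

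The control arrays were not alike in this set. The median intensity of the 173 probe sets was 26.7 in control replicate 1 and 45.7 in control replicate 2, against 128.5 and 109.5 in the GA arrays. Control replicate 2 was the brighter control in 154 of the 173 (89.0%), against 49.2% of all probe sets, with a median gap between the control arrays of 0.43 on the log2 scale. GA replicate 1 was the brighter GA array in 119 of them (68.8%). Set against control replicate 1 alone, 294 probe sets were at least 2-fold brighter in GA, and against control replicate 2 alone, 121. The PBZ arrays, whose plants are not described as sprayed either, had medians of 32.9 and 34.1 in the same 173 probe sets, inside the range of the controls. What part the gap between the control arrays has in the result was not tested. All 173 had both GA arrays above both control arrays, a pattern that the choice by size favours. Among all probe sets 3826 (16.8%) had the GA arrays above both controls without overlap and 5054 (22.2%) below.

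**Figure D2:**
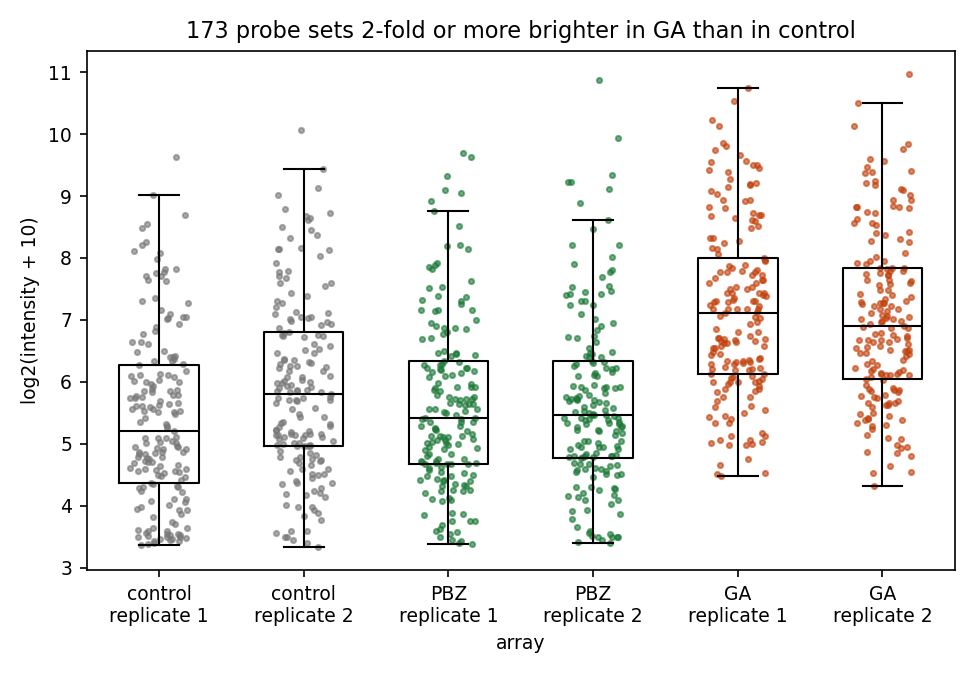
Intensities (y axis, log2(intensity + 10)) of the 173 probe sets at least 2-fold brighter in GA, by array (x axis). Points are probe sets, boxes span the quartiles with the median as a line, and whiskers reach the last value within 1.5 box lengths. The median lies higher in control replicate 2 than in control replicate 1 (intensities 45.7 and 26.7) and highest in the GA arrays.

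Touch and early stress genes had the highest median of the 15 lists with 3 or more measured genes. The lists were drawn up with earlier results of these data known, so this rank is no independent support. Of 39 listed genes, whose messages are known to appear within minutes of touch, wounding or elicitors, 9 were measured under their own name. Of these, 8 were higher in GA, 5 had an unadjusted p under 0.05 upward (4.74% of all probe sets did) and 0 downward. The median difference was 1.16, against -0.02 over all probe sets, and the same 5 genes were at least 2-fold brighter. In this list, too, 8 of the 9 genes were brighter in control replicate 2 than in control replicate 1, and the summed intensity was 161.8 and 409.7 in control against 990.6 and 900.1 in GA.

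CML38, a calmodulin-like calcium sensor, had intensities of 7.3 and 16.5 in control and 133.8 and 90.4 in GA. The groups lay far apart, and the PBZ arrays, at 14.5 and 14.4, fell among the controls. The log2 difference was 2.49 ± 0.26 (SE), with an adjusted p of 0.109 in limma, 0.042 with an intensity trend and 0.00412 without dim probe sets. WRKY53, a transcription factor of leaf senescence and defence, measured 24.3 and 46.9 in control and 189.1 and 181.1 in GA. Both GA arrays exceeded the brighter control about 4-fold, and the difference was 2.14 ± 0.24, with an adjusted p of 0.109 that became 0.042 with an intensity trend and 0.00412 without dim probe sets. PUB23, a U-box ubiquitin ligase that dampens immune and drought responses, measured 12.6 and 5.7 in control and 73.7 and 49.8 in GA. Here control replicate 1 was the brighter control, and the difference was 1.91 ± 0.23 with an adjusted p of 0.109, or 0.00419 without dim probe sets. CML37, a calcium sensor related to CML38, was dim throughout, at 5.4 and 7.7 in control and 24.7 and 29.1 in GA. Its groups did not overlap, and its difference of 1.16 ± 0.15 had an adjusted p of 0.117.

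ZAT10, a zinc finger repressor of stress-responsive genes that the annotation names STZ, lies outside the naming rule and was chosen after its values were seen, as the fifth gene of the list with an unadjusted p under 0.05. It measured 38.8 and 163.7 in control and 399.7 and 411.5 in GA. The control arrays differed about 4-fold from each other, the GA arrays hardly at all. The difference of 2.17 had an SE of 0.54 and an adjusted p of 0.310 in limma.

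Calcium sensing and WRKY genes overlapped with that list. Of 23 listed calcium genes 7 were measured, 6 of them higher in GA, with a median difference of 0.60. At an unadjusted p under 0.05, 3 were higher (4.74% of all probe sets were) and 0 lower (3.75% of all). Besides CML38 and CML37 the third was CML41, at 26 and 25.5 in control and 36.7 and 53.0 in GA, a difference of 0.60 ± 0.17. CML41 stood at 70.0 in both PBZ arrays, above the GA arrays. Of 47 WRKY transcription factors 6 were measured, 3 higher and 3 lower. All 3 that were higher had an unadjusted p under 0.05, which 4.74% of all probe sets reached upward. WRKY22, which acts in immune signalling, measured 9.2 and 14.5 in control and 28.4 and 23.6 in GA. WRKY6, linked to senescence and phosphate supply, measured 11.4 and 2.2 in control and 19.7 and 15.5 in GA. Both were dim, and their differences of 0.73 ± 0.18 and 0.77 ± 0.28 were smaller than that of WRKY53. WRKY20 differed by -0.15 ± 0.14.

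Defence genes of the salicylate and pattern-triggered kind followed in the same direction with smaller differences. All 4 measured of 45 listed were higher in GA, with a median of 0.31. At an unadjusted p under 0.05 there were 2 of them, against 4.74% of all probe sets upward. GRX480, a glutaredoxin induced by salicylate, measured 10.6 and 23.8 in control and 39.0 and 59.9 in GA, a difference of 1.15 ± 0.28 with an adjusted p of 0.310. SAG101, a partner of EDS1 in immune signalling, measured 41.7 and 44.9 in control and 62.9 and 56.5 in GA, a difference of 0.39 ± 0.14. The kinase BIK1 and the receptor EFR overlapped between the groups, with differences of 0.24 ± 0.20 and 0.19 ± 0.26. CHI, annotated as a chitinase, measured 39.9 and 40.5 in control and 115.6 and 127.9 in GA. Its PBZ arrays lay higher still, at 225.4 and 343.5, and its difference between GA and control was 1.39 ± 0.21 with an adjusted p of 0.143, or 0.00923 without dim probe sets.

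In jasmonate genes no such direction appeared. Of 36 listed, 4 were measured, 2 higher and 2 lower, with 0 at an unadjusted p under 0.05. PDF1.2, the plant defensin used as a marker of jasmonate and ethylene defence, measured 96.6 and 206.1 in control and 139.2 and 130.8 in GA, so the GA arrays lay between the controls. PDF1.2b also overlapped, at 136.7 and 226.7 in control and 181.9 and 241.3 in GA, but its probe set may also bind related sequences. THI2.1 was dimmer in GA without overlap, at 14.7 and 25.3 in control and 13.3 and 11.2 in GA. Its difference was -0.41 ± 0.31. The 2 measured ethylene genes, EIN3 and RTE1, differed by 0.02 ± 0.12 and -0.16 ± 0.24.

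Cell wall genes split by family and by member. EXLA1, an expansin-like protein, had the smallest p among genes with a symbol of their own: 89.6 and 96.4 in control, 580.0 and 386.6 in GA, and 44.1 and 39.3 in PBZ. The control arrays were close to each other and the GA arrays at least 4 times as bright, while the PBZ arrays were dimmer than both controls. The difference was 2.23 ± 0.20, with an adjusted p of 0.109 in limma, 0.0364 with an intensity trend and 0.00412 without dim probe sets. It ranged from 1.95 to 2.52 over the alternatives and was 2.18 without control replicate 1. EXLA2, its closest listed relative in name, measured 31.8 and 29.1 in control and 73.3 and 46.9 in GA, a difference of 0.77 ± 0.27 that had an unadjusted p of 0.0291. EXLA3 was dim, at 6.3 and 4.4 in control and 12.4 and 5.7 in GA, and its groups overlapped.

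Alpha- and beta-expansins differed in both directions. Of 28 expansin and expansin-like genes 16 were measured, 8 higher and 8 lower, with a median difference of 0.03. At an unadjusted p under 0.05 there were 2 each way, against 4.74% of all probe sets upward and 3.75% downward. In a split made after the values were seen, the 4 expansin-like genes were all higher. Of the 12 listed alpha- and beta-expansins 4 were higher and 8 lower. EXPA8, an alpha-expansin, measured 699.2 and 638.0 in control, 391.7 and 442.3 in GA and 57.1 and 88.9 in PBZ. Both GA arrays were thus dimmer than both controls, and both PBZ arrays dimmer again. The difference between GA and control was -0.67 ± 0.21 with an adjusted p of 0.423. EXPB3, a beta-expansin, measured 164.8 and 197.0 in control and 116.0 and 121.6 in GA, a difference of -0.56 ± 0.15. EXPA15, EXPA4 and EXPA16 overlapped between the groups, with differences of -0.08 ± 0.17, -0.22 ± 0.25 and -0.16 ± 0.22. EXPB1 was higher in GA without overlap, at 34.4 and 40.7 in control and 43.3 and 41.1 in GA, a difference of 0.14 ± 0.13. The other higher ones, EXPA20, EXPB2 and EXPA7, overlapped, with differences of 0.24 ± 0.24, 0.22 ± 0.31 and 0.11 ± 0.21. EXLB1 measured 91.5 and 143.2 in control and 145.0 and 167.9 in GA, a difference of 0.41 ± 0.22.

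XTH enzymes cut and rejoin the xyloglucan chains that tether cellulose. Of 33 listed, 10 were measured, 7 higher and 3 lower, with a median of 0.28. At an unadjusted p under 0.05, 5 were higher (4.74% of all probe sets were) and 0 lower (3.75% of all). XTH18 measured 1.0 and 5.2 in control and 22.1 and 24.2 in GA, so it was near the lower end of the scale in control, and its difference was 1.36 ± 0.24 with an adjusted p of 0.182. XTH33 measured 18.5 and 14.9 in control and 31.5 and 35.3 in GA, a difference of 0.70 ± 0.16. XTH16 measured 69.8 and 74.1 in control and 104.4 and 119.2 in GA, a difference of 0.57 ± 0.14. In each of these the GA arrays lay above both controls, and for XTH33 and XTH16 the PBZ arrays lay below both. EXGT-A3, an enzyme of the same family, measured 266.4 and 257.8 in control and 394.4 and 340.2 in GA, a difference of 0.47 ± 0.14. XTH29 was dim in all arrays and differed by 0.40 ± 0.13. XTH32 stood on the other side, at 257.4 and 279.3 in control and 173.4 and 236.2 in GA, a difference of -0.39 ± 0.17. XTH19, XTH20, XTH21 and XTH26 had intensities of 24.8 or less, with differences from -0.11 to 0.17.

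EXO, an extracellular protein that promotes leaf growth and answers to brassinosteroids, measured 59.0 and 87.7 in control, 405.3 and 236.7 in GA and 37.0 and 30.1 in PBZ. Its 3 groups did not overlap. The difference between GA and control was 1.96 ± 0.29, with an adjusted p of 0.143 in limma and 0.00696 without dim probe sets. PME41, a pectin methylesterase that the annotation names ATPMEPCRB, measured 40.5 and 49.7 in control and 158.2 and 144.5 in GA. Both GA arrays lay well above both controls, with a difference of 1.55 ± 0.21 and an adjusted p of 0.117, which became 0.0484 with an intensity trend and 0.00591 without dim probe sets. COB, a membrane-anchored protein that orients cellulose microfibrils, had a difference of 0.06 ± 0.12. TBL36, of a family that acetylates wall polysaccharides, measured 72.4 and 78.2 in control and 33.7 and 47.1 in GA, a difference of -0.77 ± 0.17.

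**Figure D3:**
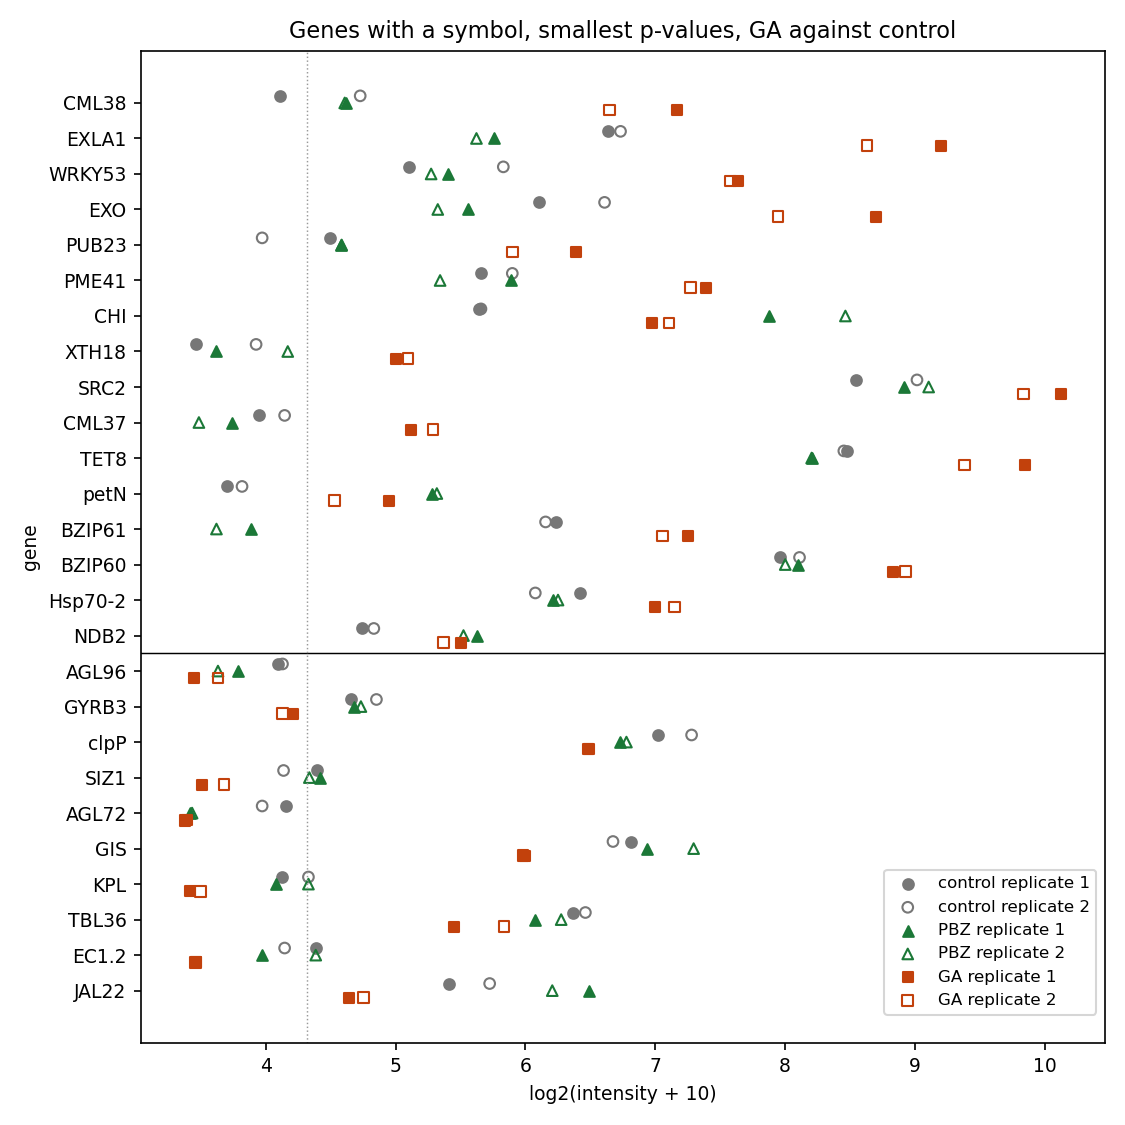
Intensities (x axis, log2(intensity + 10)) of the 16 genes with a symbol and the smallest p-values among those brighter in GA (above the line) and the 10 among those dimmer (below it), by gene (y axis). Each symbol is 1 array, filled for replicate 1 and open for replicate 2, and the dotted line marks an intensity of 10. In EXLA1 the GA arrays reach 580.0 and 386.6, while in AGL72, KPL and EC1.2 all GA arrays lie to the left of the dotted line.

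Other genes of small p among the brighter ones belonged to varied groups. TET8, a tetraspanin of extracellular vesicles, measured 346.7 and 340.6 in control and 914.5 and 657.4 in GA, a difference of 1.15 ± 0.18 with an adjusted p of 0.148, or 0.0446 with an intensity trend. BZIP60, a transcription factor of the unfolded protein response, measured 239.1 and 266.7 in control and 445.5 and 477.0 in GA, a difference of 0.84 ± 0.13. Its adjusted p was 0.146, and 0.042 with an intensity trend. The PBZ arrays of BZIP60, at 264.7 and 246.4, lay in the control range. BZIP61, a related basic leucine zipper factor, behaved otherwise under PBZ: it measured 65.5 and 61.3 in control, 142.4 and 123.1 in GA and 4.8 and 2.3 in PBZ. The 3 groups were well separated, and the difference between GA and control was 0.96 ± 0.15. SRC2, a membrane protein with a calcium-binding C2 domain, measured 364.8 and 508.1 in control and 1107.5 and 903.6 in GA, a difference of 1.2 ± 0.20. Hsp70-2, a chaperone, measured 75.6 and 57.5 in control and 117.7 and 131.9 in GA, a difference of 0.82 ± 0.16. NDB2, a mitochondrial alternative NADH dehydrogenase, measured 16.8 and 18.5 in control and 35.5 and 31.3 in GA, a difference of 0.65 ± 0.13, and was as bright in PBZ, at 39.4 and 36.0. TET8, SRC2, BZIP61, BZIP60 and Hsp70-2 passed in the fit without dim probe sets.

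Genes known here only by a locus code included the smallest p-value among probe sets that name 1 gene. AT1G33760 was listed at 0.4 and 0.5 in control and in PBZ, and at 54.0 and 34.6 in GA. Its controls sat at the lower end of the scale, so its difference of 2.35 ± 0.19 depended on the added constant and ranged from 1.22 to 4.93 over the alternatives. It passed with an intensity trend, at an adjusted p of 0.0364, and was too dim for the fit without dim probe sets. AT4G34150 was bright in every array, at 242.8 and 275.2 in control and 687.6 and 597.8 in GA. Its difference of 1.28 ± 0.14 stayed between 1.18 and 1.38 over the alternatives, with an adjusted p of 0.109 in limma and 0.00419 without dim probe sets. AT3G02840 measured 10.0 and 15.3 in control and 63.9 and 67.7 in GA, a difference of 1.75 ± 0.17. AT2G39650 measured 28.0 and 25.3 in control and 90.2 and 77.8 in GA, a difference of 1.36 ± 0.14. In all of these the groups stood apart, and the PBZ arrays lay far below the GA arrays. AT3G02840, AT2G39650 and AT4G34150 passed both with an intensity trend (adjusted p of 0.0446, 0.047 and 0.0364) and without dim probe sets. AT1G72920 differed by 1.52 ± 0.17 and passed without dim probe sets, at 0.00419. On the dimmer side AT1G76590 measured 201.6 and 163.0 in control and 93.5 and 93.2 in GA, a difference of -0.89 ± 0.15 with an adjusted p of 0.180, or 0.0232 without dim probe sets. AT1G73400 measured 28.3 and 21.8 in control and 3.8 and 4.4 in GA. AT5G59700 and AT5G14830 were at an intensity of 11.0 or less in every control array, with differences of -0.77 ± 0.12 and -0.78 ± 0.13.

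Gibberellin perception and signalling genes were all lower in GA. Of 14 listed genes 8 were measured and 8 had a negative difference, as did 12471 of all 22746 probe sets. Both GA arrays lay below both controls in 6 (22.2% of all probe sets were below). An unadjusted p under 0.05 downward was reached by 1, XERICO (3.75% of all). The median difference was -0.32. XERICO, a RING protein that promotes abscisic acid accumulation and is switched on by DELLA proteins, measured 244.1 and 217.5 in control, 100.7 and 148.8 in GA and 516.8 and 670.2 in PBZ. The 3 groups did not overlap, with GA lowest and PBZ highest, and the difference between GA and control was -0.86 ± 0.22 with an adjusted p of 0.325 in limma.

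The 3 receptor genes had the same order of groups in part. GID1A measured 115.0 and 104.7 in control, 84.6 and 91.7 in GA and 200.7 and 182.4 in PBZ, a difference between GA and control of -0.29 ± 0.13. GID1B measured 10.6 and 16.4 in control, 4.4 and 9.2 in GA and 42.4 and 52.9 in PBZ, a difference of -0.49 ± 0.21. In both genes GA arrays were the dimmest and PBZ arrays the brightest, without overlap. GID1C measured 28.1 and 34.1 in control and 17.5 and 27.5 in GA, with PBZ arrays at 38.8 and 25.6 that overlapped the other groups. SLY1, the F-box protein that recruits DELLA proteins, measured 104.1 and 103.4 in control, 90.8 and 87.1 in GA and 145.3 and 232.0 in PBZ. Its 3 groups did not overlap either, with GA dimmest and PBZ brightest. The difference between GA and control for SLY1 was -0.20 ± 0.22, an SE that also draws on its widely spaced PBZ arrays. SLY2, its homologue, differed by -0.35 ± 0.17. SPY and SEC, which attach sugars to DELLA proteins, overlapped between the groups, with differences of -0.04 ± 0.20 and -0.04 ± 0.18. The comparisons of GA and of PBZ share the control arrays. The listed genes of gibberellin synthesis and breakdown and the GASA peptides had no probe set that named them alone and were not analysed here.

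**Figure D4:**
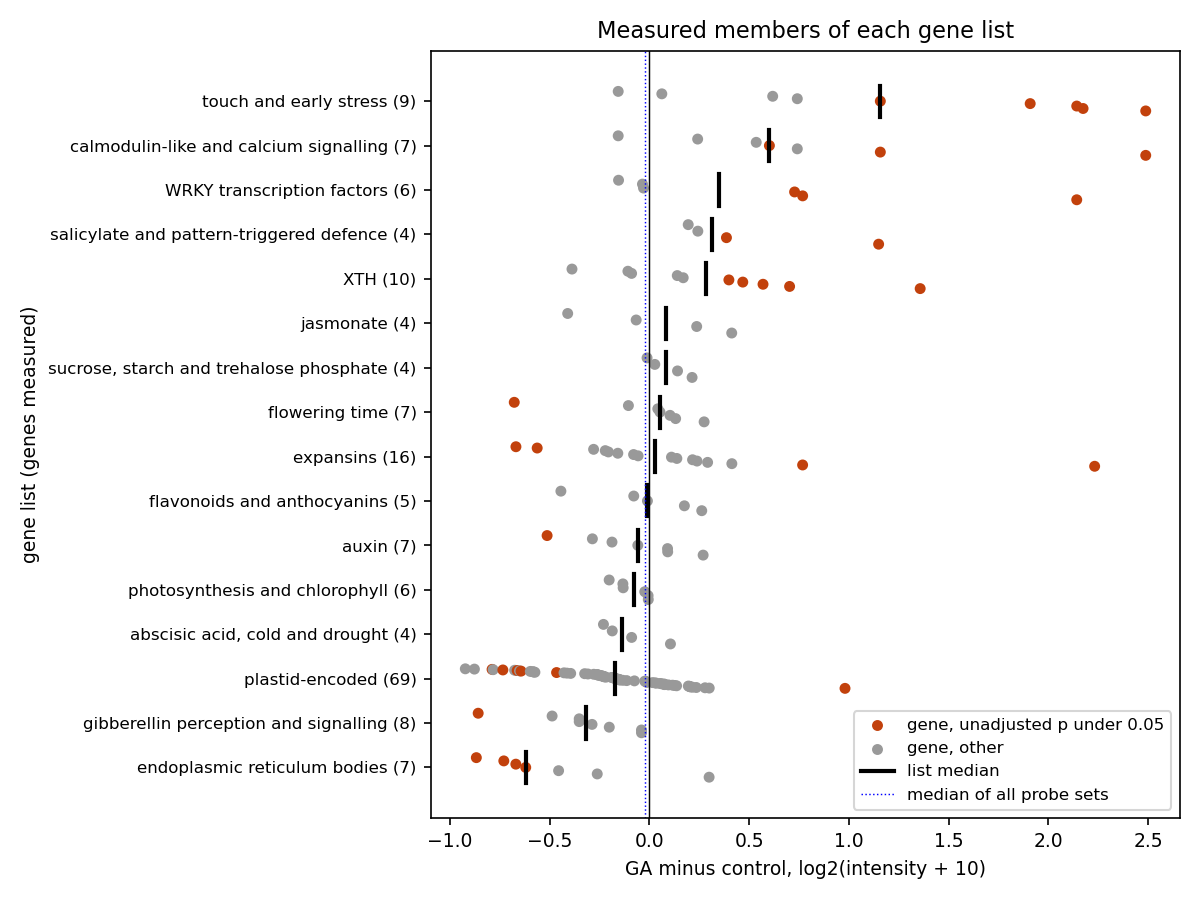
Difference between GA and control (x axis, log2(intensity + 10)) for each measured gene, by list (y axis), ordered by list median (black bar). Shown are the 15 lists with 3 or more measured genes and, besides them, the plastid-encoded genes. Coloured points had an unadjusted p under 0.05, and the dotted line is the median of all probe sets, -0.02. Medians run from 1.16 for touch and early stress genes to -0.62 for endoplasmic reticulum body genes.

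Genes of endoplasmic reticulum bodies, compartments that store defence glucosidases, gave the lowest list median. This list, too, was drawn up with earlier results of these data known. Of 14 listed 7 were measured, 6 of them lower in GA with no overlap (22.2% of all probe sets were). At an unadjusted p under 0.05, 4 were lower (3.75% of all) and 0 higher, and the median was -0.62. JAL22, a jacalin-like lectin, measured 32.5 and 42.9 in control, 15.0 and 17.0 in GA and 79.7 and 63.9 in PBZ, a difference between GA and control of -0.87 ± 0.17. It passed without dim probe sets, with an adjusted p of 0.0367, against 0.204 with all probe sets. JAL33, another such lectin, measured 26.5 and 45.7 in control and 16.2 and 18.2 in GA, a difference of -0.73 ± 0.21. PYK10, the main glucosidase of these bodies, measured 92.6 and 130.2 in control and 54.0 and 78.8 in GA, a difference of -0.67 ± 0.23. NAI2, which shapes the bodies, measured 42.9 and 32 in control and 22.2 and 19.2 in GA, a difference of -0.62 ± 0.21. In all 4 genes the PBZ arrays lay above both controls. JAL23 was the exception, at 39.3 and 75.2 in control and 65.8 and 73.9 in GA, with overlapping groups. Of the 7 genes, 6 were brighter in control replicate 2 than in control replicate 1. PYK10 and its relatives are expressed most in roots and seedlings. Only 2 of 13 listed root markers were measured, at 20.9 or less on all 4 arrays and with overlapping groups. Whether root tissue was present was not tested.

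Dimmer genes of small p included regulators and many dim probe sets. GIS, a zinc finger protein through which gibberellin promotes trichome formation, measured 102.3 and 92.2 in control and 53.9 and 53.2 in GA. Each pair of arrays agreed closely, the groups stood apart, and the difference was -0.75 ± 0.16 with an adjusted p of 0.241 in limma and 0.0537 without dim probe sets. TRY, the other measured trichome gene, overlapped between groups at 5.2 and 18.4 in GA. AGL72 and AGL96, MADS-box factors, KPL, which acts in fertilisation, EC1.2, a secreted egg cell protein, and SIZ1, a SUMO ligase, had intensities of 11.0 or less in every control array and 2.8 or less in every GA array. At this level their differences, from -0.57 to -0.81, depended on how low values were treated, and with a floor of 10 in place of the constant they lay between 0.00 and -0.07. GYRB3 measured 15.2 and 18.9 in control and 8.5 and 7.5 in GA. GI, the 1 measured clock gene, which links the clock to flowering, measured 181.0 and 188.3 in control and 126.8 and 140.3 in GA. Its difference was -0.44 ± 0.14, with no overlap, and its PBZ arrays at 210.4 and 178.0 lay around the controls.

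Plastid-encoded genes leaned to the dimmer side. All 69 listed were measured, 48 lower and 21 higher in GA, with 27 below both controls without overlap (22.2% of all probe sets were) and a median of -0.17. At an unadjusted p under 0.05, 5 were dimmer (3.75% of all probe sets were) and 1 brighter (4.74% of all). clpP, a subunit of the plastid protease, measured 119.9 and 145.5 in control and 79.6 and 79.9 in GA, a difference of -0.66 ± 0.14. psbT, a small photosystem II subunit, differed by -0.47 ± 0.14. ndhG and ndhE, subunits of the plastid NDH complex, differed by -0.79 ± 0.24 and -0.73 ± 0.26, and rpoC1, a subunit of the plastid RNA polymerase, by -0.64 ± 0.26. ndhG was dim, at 11.7 and 5.9 in control and 0.7 and 0.8 in GA, and its difference ran from -2.42 to -0.11 over the alternatives. ndhE and rpoC1 were chosen after their values were seen. petN, a subunit of the cytochrome b6f complex, was the brighter one, at 3.0 and 4.1 in control, 20.9 and 13.1 in GA and 28.9 and 29.9 in PBZ. The summed intensity of the 69 genes was 9606.0 and 10587.9 in control and 9362.3 and 10290.0 in GA, so replicate 2 was the brighter one in both groups. Nuclear photosynthesis genes differed little: all 6 measured of 32 listed were lower, with a median of -0.08 and 0 at an unadjusted p under 0.05. LHCB4.2, a light-harvesting protein, measured 3431.9 and 3028.1 in control and 2898.1 and 2707.9 in GA, a difference of -0.20 ± 0.13. PORB, of chlorophyll synthesis, differed by -0.13 ± 0.16.

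Further hormone and metabolic lists stayed near the median of all probe sets. At an unadjusted p under 0.05, 4.74% of all probe sets were brighter and 3.75% dimmer in GA. Of 33 auxin genes 7 were measured, with a median of -0.06, and 1 had an unadjusted p under 0.05. That was IAA29, a repressor of auxin response, at 32.7 and 37.2 in control and 18.6 and 24.6 in GA, a difference of -0.51 ± 0.16. Cold and drought genes under abscisic acid control overlapped between the groups in all 4 measured of 26, with a median of -0.14. COR15A, a chloroplast cold-protection protein, measured 3350.0 and 2281.8 in control and 3178.1 and 2124.1 in GA, so replicate 1 exceeded replicate 2 by a similar step in both groups. COR47 and COR15B had the same order of replicates. The 5 measured flavonoid genes of 21 had a median of -0.01 and 0 at an unadjusted p under 0.05. DFR, an enzyme of anthocyanin synthesis, measured 14.5 and 16.7 in control and 20.0 and 17.8 in GA, against 143.7 and 150.8 in PBZ. Flowering time genes had a median of 0.05 over 7 measured of 25, with AGL72 the 1 gene at an unadjusted p under 0.05. Genes of sucrose, starch and trehalose phosphate had a median of 0.08 over 4 measured of 31. SWEET11, a sucrose exporter, measured 1186.9 and 796.7 in control and 1140.7 and 1118.6 in GA, a difference of 0.21 ± 0.21.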

How the data were processed

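Total RNA is the molecule named in the labels, and the protocol text also covers RNA of tag-purified polysomes. RNA carried biotin, per the labels. The intensities as deposited are linear, 1 per probe set and array, and share a trimmed mean of 100.01 (2% off each end). The submitters' processing notes name RMA and affy. RMA values would be log2, so how probes were summarised here stays unknown.

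Of 22810 probe sets 64 controls were left out. From 28.7% to 29.4% of intensities in the control and GA arrays were under 10. All 6 arrays entered 1 fit on log2(intensity + 10) with a mean per group (R 4.3.3, limma 3.58.1, 3 residual and 3.07 prior degrees of freedom), two-sided and adjusted by Benjamini-Hochberg over 22746 probe sets. The fit was tried on simulated data with independent noise between arrays. That trial does not cover gaps shared by many probe sets, as between the control arrays here.

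The platform annotation named 1 gene for 13513 probe sets, several for 503 and none for 8730. Of the 13513, 13436 were matched to RefSeq by Entrez number, and 1580 had a symbol of their own. Of 661 listed genes in 31 lists, 110 were measured, and 9 lists had 0. A listed gene takes its brightest probe set. Members, lists and rules were chosen with earlier results of these data known, and no list was tested. Named are genes without overlap between GA and control: the 16 brighter and 10 dimmer with a symbol, and the 6 and 4 with a locus code, of smallest p. Up to 4 genes a list and all receptor-pathway, XTH and expansin genes were added. JAL23 was named after its values were seen. Promoter sequences were not used here.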

Additional observations from a re-analysis of the deposited data

How the results depend on the processing

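Of the 56 genes followed under other settings, 0 changed direction, and 20 passed in at least 1 setting. These genes were chosen for groups without overlap or an unadjusted p under 0.05, a choice that favours an unchanged direction. Differences that vanished with a floor of 10, as for AGL72, were counted as unchanged. The count of passing probe sets, 0 as reported, was also 0 with a robust prior, quantile normalization, median centring, a constant of 1 or 32, the 4 arrays alone, named unique probe sets alone, and each array left out (0 to 0). It was 51 with an intensity trend, 193 without dim probe sets and 4 with a floor of 10. With the replicate number as a block it was 1. Over all probe sets, deviations of same-numbered arrays correlated at 0.0147 (control and PBZ), 0.0313 (control and GA) and -0.0008 (PBZ and GA). The 3' to 5' actin ratio was nonetheless higher in replicate 1 than in replicate 2 of every group. It was 4.84 and 3.62 in control, 4.39 and 3.54 in PBZ, and 4.57 and 4.25 in GA. The ubiquitin ratio had the same order in every group, at 1.369 and 1.238 in control, 1.183 and 1.089 in PBZ, and 1.358 and 1.198 in GA. The GAPDH ratio had it in PBZ, at 1.006 and 0.925, and in GA, at 1.078 and 0.926. It did not in control, at 0.854 and 0.872. Such a correlation can miss an order shared by few probe sets, and whether the numbers pair the arrays was not otherwise tested. Combined settings, chosen after seeing the data, gave 1 for trend with block, 223 for the dim filter with block, 30 for trend with a constant of 32, 43 for trend with quantile normalization and 314 for trend with the dim filter. Leaving out 1 array gave 0 to 22 with a trend and 30 to 229 with the dim filter. The count at an unadjusted p under 0.05 was 1366 to 2200 with an array left out and 1045 over named unique probe sets, where fewer probe sets were tested.

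The 2-fold counts of 173 brighter and 10 dimmer became 913 and 821 with a constant of 1 (52.7% brighter, against 94.5%), 85 and 1 with 32, 249 and 23 with a floor of 10, 145 and 5 without dim probe sets, and 79 and 5 over named unique probe sets. With 1 array left out they ran from 121 to 294 and from 10 to 52. Without control replicate 2 they were 294 and 52, without control replicate 1, 121 and 31, without GA replicate 1, 179 and 31, and without GA replicate 2, 222 and 52. Where the alternative does not itself set the number of probe sets, arrays or the weight of dim values, the cause was not tested. Dim probe sets limit what can be said of genes under an intensity of about 10.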

Other observations

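Gene families were read by the stem of their symbol, a choice made after the annotation was seen: 30 families had at least 8 genes, and 8 of them had 0 genes at an unadjusted p under 0.05. Of all probe sets 4.74% reached that p upward and 3.75% downward. Of 14 basic leucine zipper genes 9 were higher and 5 lower, with 3 at that p upward and 0 downward, namely BZIP60, BZIP61 and the dim BZIP34, at 4.5 and 1.9 in control and 13.0 and 8.1 in GA. RALF-like peptides, small secreted signals that alkalinise the cell wall, were higher in 8 of 11 and lower in 3, with 2 at that p upward and 0 downward. RALFL33 measured 638.8 and 827.4 in control, 1447.3 and 1147.0 in GA and 291.1 and 367.0 in PBZ, a difference between GA and control of 0.82 ± 0.20 with an adjusted p of 0.315 in limma. RALFL22 measured 207.7 and 193.0 in control, 388.2 and 302.2 in GA and 89.3 and 112.6 in PBZ, a difference of 0.75 ± 0.18. In both peptides GA arrays were the brightest and PBZ arrays the dimmest, without overlap. UGT glycosyltransferases, which attach sugars to hormones and secondary metabolites, were higher in 19 of 47 and lower in 28, with 1 at that p upward and 6 downward and a median difference of -0.01. UGT76C2, which inactivates cytokinins, measured 40.1 and 38.6 in control and 25.2 and 27.2 in GA, and UGT72E1, which acts on monolignols, 76.0 and 85.7 in control and 63.3 and 52.2 in GA. Their differences were -0.45 ± 0.15 and -0.43 ± 0.14. Cytochrome P450 genes were higher in 11 of 26 and lower in 15, with 0 at that p upward and 3 downward, all 3 dim in control. GH9 cellulases, split from the GH3 genes of the same stem after the values were seen, were higher in 5 of 15 and lower in 10, with 0 at that p upward and 3 downward, among them GH9B13, which measured 83.6 and 100.1 in control and 60.1 and 65.4 in GA. GSTU27, a glutathione transferase, measured 506.3 and 510.9 in control, 798.1 and 723.5 in GA and 226.6 and 257.7 in PBZ, a difference between GA and control of 0.57 ± 0.13. Tetraspanins were higher in 7 of 15 and lower in 8, with TET8 at that p upward and TET16 and TET3 downward, TET3 at 312.4 and 278.1 in control and 210.2 and 202.0 in GA, a difference of -0.50 ± 0.15.

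Some of the genes at least 2-fold brighter in GA lie near each other. Of 78 such genes with a place in the RefSeq gene order (TAIR10.1), 7 lay within 5 protein-coding genes of another, in 3 clusters, a reading made after the values were seen. No share was computed for other genes, so whether 7 of 78 is many was not tested. One cluster holds AT1G72900, AT1G72920 and AT1G72940, which differed by 1.44 ± 0.22, 1.52 ± 0.17 and 1.24 ± 0.17. AT1G72940 measured 34.7 and 45.7 in control and 105.5 and 109.5 in GA, and AT1G72900 20.1 and 34.4 in control and 90.6 and 87.7 in GA. All 3 passed in the fit without dim probe sets, with adjusted p from 0.00419 to 0.0112. A second pairs CML38 with AT1G76600, at 47.6 and 127.5 in control and 190.0 and 178.2 in GA, a difference of 1.12 ± 0.39 with an adjusted p of 0.497. Its control arrays again stood far apart. The third pairs AT5G52750, at 132.6 and 212.0 in control and 405.4 and 362.0 in GA, with AT5G52760, at 70.9 and 144.4 in control and 311.4 and 295.3 in GA. Both passed without dim probe sets, at adjusted p of 0.028 and 0.0329. If neighbours are near-identical copies, their probe sets need not be independent readings.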
